A study of Homo sapiens with 12 samples.

Results

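Side population (SP) and non-SP cells of the human lung adenocarcinoma line A549 were compared after exposure to an EpCAM antibody. The comparison rests on 6 of the 12 arrays of the series, chosen by their titles: 3 from treated SP cells and 3 from treated non-SP cells, each SP array set against the non-SP array of the same biological replicate number. All 6 cultures had received a monoclonal antibody, named in the labels as anti-mouse EpCAM with no word on whether mouse is host or target, at 100 µg/ml for 48 h. Cells were then loaded with the dye Hoechst (5 µg/ml, 90 min) before flow sorting, and 200 ng of total RNA from each fraction was labelled and hybridised to an Affymetrix 3' expression array. The other 6 arrays hold SP and non-SP cells from cultures of the same line, titled without the antibody and called untreated here, again with 3 replicates in each fraction. No antibody of another specificity is among the groups, so nothing here separates binding of EpCAM from exposure to an antibody.

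A side population is the set of cells that stays dim after Hoechst loading because membrane pumps of the ATP-binding cassette family, above all ABCG2, export the dye. The gate therefore selects for pump activity and not for a surface marker. In tumour lines such cells have been studied for drug efflux and for stem-like behaviour. EPCAM, the target named for the antibody, is an epithelial adhesion protein that can also be cleaved to release a signalling fragment.

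The 6 pairs of arrays were not alike in RNA integrity. Affymetrix arrays carry probe sets at the 3' and 5' ends of the housekeeping transcripts ACTB and GAPDH, and a larger 3' minus 5' difference accompanies shorter labelled RNA. The ACTB difference was larger on the SP array by 1.86 on the log2 scale in treated pair 1 and by 0.27 in pair 2, whereas in treated pair 3 it was lower there, at -2.09. Untreated pairs lay between -0.36 and -0.25. GAPDH gave 0.54, 0.30 and -0.38 in treated pairs 1, 2 and 3 and between -0.11 and 0.11 in untreated pairs. The treated SP array thus had the more 3'-weighted RNA in pair 1 and the less 3'-weighted RNA in pair 3.

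The comparison asks what sets the sorted fractions apart while the antibody is present. Of 14649 genes, 36 passed the limma test on within-pair differences at an adjusted p under 0.05, which is a background of 0.246%. In SP cells 8 were higher (0.0546% of genes tested) and 28 were lower (0.191%). The higher genes included the dye pump ABCG2 and the early-response genes NR4A3 and ATF3, and the lower genes included collagens and the secreted proteins SPOCK1 and IL11. The rises lay between 0.53 and 0.71 and the falls between -1.40 and -0.42 on the log2 scale. Each of the 36 had the same sign in all 3 treated pairs, as did 25.6% of all genes.

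The number of passing genes changed with each treated pair left out. It was 5 without treated pair 1, 0 without treated pair 2 (smallest adjusted p = 0.0692, with 948 genes at an unadjusted p under 0.05) and 9 without treated pair 3. Without untreated pair 1, 2 or 3, which enter through the shared estimate of the spread, it was 28, 24 and 32. The direction of all 36 was kept in each of these fits. That was bound to follow, since each of the 36 had the same sign in all 3 treated pairs. The untreated pairs do not enter the treated mean. Without pair 1 the passing genes were IL11, SPOCK1, CARD8-AS1, COL11A1 and the collagen chain COL4A3, and without pair 3 they included SPOCK1, RNF139-DT and KBTBD8. When the 12 arrays were taken as independent samples, limma called 0 genes. Unadjusted p-values below 0.05 were found for 58 of 14649 genes, a smaller share than this threshold would give by chance. With the ACTB covariate 43 genes passed, 33 of the 36 among them but not NR4A3, PDCD4-AS1 and TCN1. The treated ACTB differences of pairs 1 and 3 nearly cancel, so this covariate could hardly move a treated mean. With the GAPDH control as covariate 9 passed, all of them falls.

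**Figure D1:**
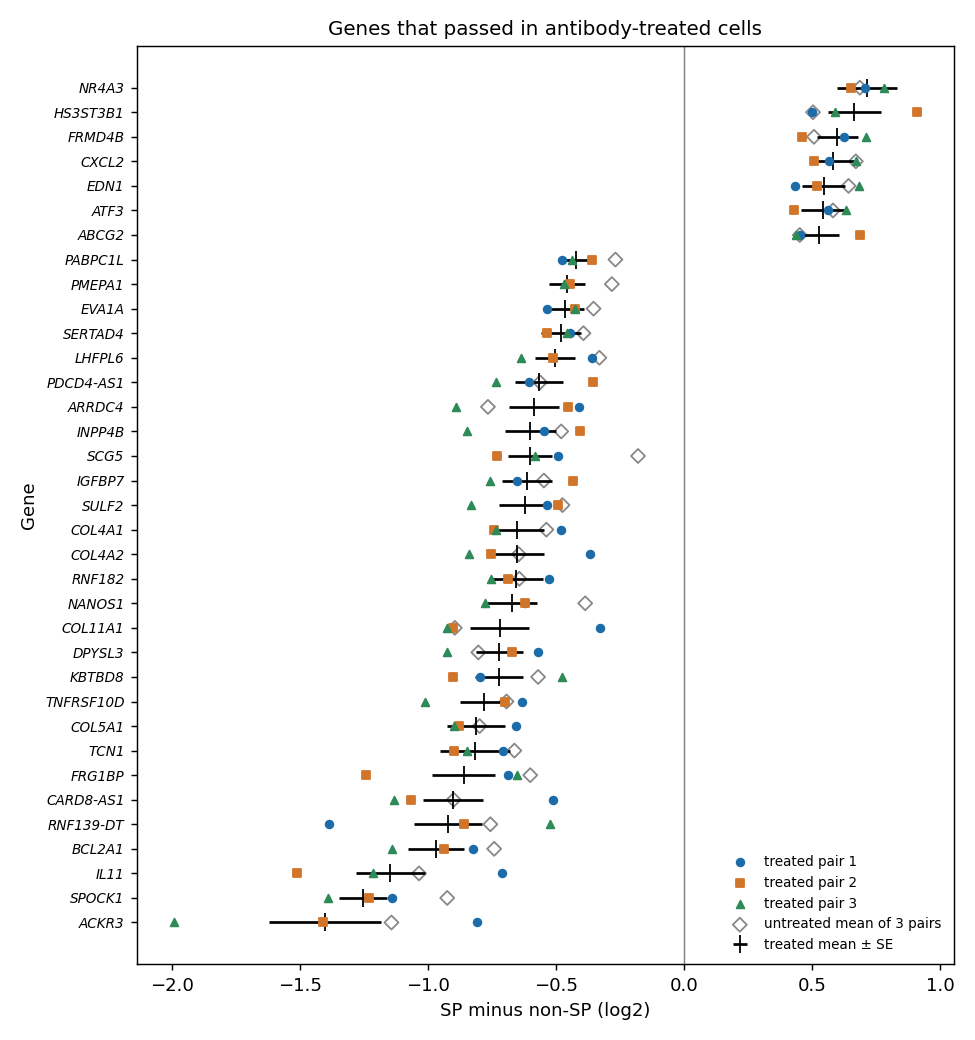
SP minus non-SP difference (log2) of 35 of the 36 genes that passed in antibody-treated cells; filled symbols are the 3 treated pairs, the black tick and bar the treated mean and its SE, and the open diamond the mean of the 3 untreated pairs. Every filled symbol lies on the side of its mean, from ACKR3 at -1.40 to NR4A3 at 0.71, and ACKR3 has the widest spread, from -1.99 to -0.81. The SE is from limma, with the spread shared with the untreated pairs.

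**Figure D2:**
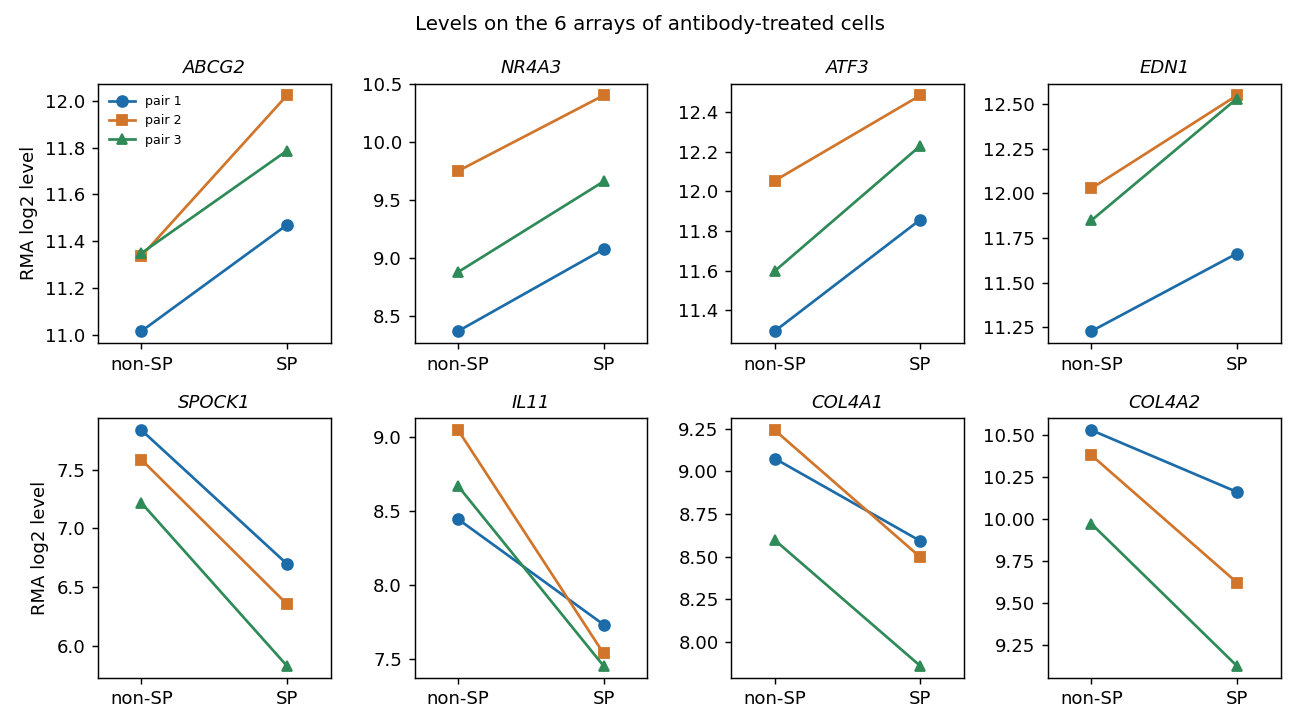
RMA log2 level of 4 genes higher and 4 genes lower in SP cells on the 6 arrays of antibody-treated cells, with a line joining the non-SP and SP array of each pair; the vertical axes differ between panels and do not start at 0. Each line rises for ABCG2, NR4A3, ATF3 and EDN1 and falls for SPOCK1, IL11, COL4A1 and COL4A2.

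ABCG2, the pump that defines the gate, was the only one of the 8 rises whose SP and non-SP arrays did not overlap. Its RMA log2 level was 11.02, 11.34 and 11.35 on the non-SP arrays of pairs 1, 2 and 3 and 11.47, 12.02 and 11.79 on the SP arrays. Every SP array lay above every non-SP array, with pair 2 the widest apart. The difference was 0.53 ± 0.08 (limma SE, n = 3 pairs), or 1.44-fold, with a 95% interval of 0.35 to 0.70 and adjusted p = 0.0469. In untreated cells the estimate was 0.45. Each SE and interval here comes from limma, with a spread shared with the untreated pairs, and is not that of the 3 treated pairs alone. Among the falls, 14 had arrays that did not overlap. Over all genes this held for 1.43%, with 0.532% higher and 0.894% lower in SP cells. The arrays of different pairs were not on a common level. The array median was 5.5843 (non-SP) and 5.5982 (SP) in treated pair 1. In treated pairs 2 and 3 it lay between 6.2214 and 6.2414. Levels and overlap across pairs, here and below, were read on the deposited values. Whether the overlaps would be the same with arrays centred on their medians was not tested.

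The other 9 efflux pumps measured did not pass. ABCC1, a pump for drug conjugates, had -0.07 ± 0.09, the lipid transporter ABCA3 had -0.33 ± 0.09 (adjusted p = 0.218) and ABCC3, an exporter of organic anions, had -0.20 ± 0.08 (adjusted p = 0.434). The latter pair were lower in SP cells in all 3 pairs. ABCB1 was too dim to be tested. The median over the 10 pumps was -0.07, against -0.0040 over all genes.

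The other 7 rises included early-response transcription factors and secreted signals. NR4A3, an orphan nuclear receptor of the early response, stood at 8.37, 9.75 and 8.88 on non-SP arrays and at 9.07, 10.40 and 9.66 on SP arrays. On the deposited values the fractions overlap, with pair 2 above the others in both, yet SP was higher within each pair, by 0.71, 0.65 and 0.78. Its mean difference was 0.71 ± 0.12 (limma SE, n = 3 pairs), or 1.64-fold, with adjusted p = 0.0473. Its other probe sets gave 0.21 and 0.63, and the mean of all was 0.52 (adjusted p = 0.286). NR4A3 lost the call with the ACTB covariate (adjusted p = 0.0574).

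ATF3, a stress-induced transcription factor of the ATF/CREB family, had 11.29, 12.05 and 11.60 on non-SP arrays and 11.86, 12.48 and 12.23 on SP arrays. Here too the pairs were ordered alike in both fractions and SP was higher in each. The difference was 0.54 ± 0.08 (1.46-fold, adjusted p = 0.0469), with both other ATF3 probe sets at 0.43 to 0.45. The mean over the ATF3 probe sets was 0.47 ± 0.18 and did not pass (adjusted p = 0.416). EDN1, which encodes the vasoconstrictor peptide endothelin-1, had 11.23, 12.03 and 11.85 against 11.66, 12.55 and 12.53, a difference of 0.55 ± 0.08. Its other probe sets gave 0.02 and 0.43, and the mean of all was 0.33 (adjusted p = 0.240).

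CXCL2, a chemokine that attracts neutrophils, rose from 9.63, 10.35 and 9.71 on non-SP arrays to 10.20, 10.85 and 10.39 on SP arrays, by 0.58 ± 0.08 (adjusted p = 0.0371). Its probe set is of the class that may also bind related transcripts, so a share from other CXC chemokines was not tested. FRMD4B, a scaffold protein with a FERM domain, had pair differences of 0.62, 0.46 and 0.71. HS3ST3B1, a sulfotransferase that modifies heparan sulfate, had 0.50, 0.91 and 0.59, with its other probe set at 0.04 and a mean of both of 0.35 (adjusted p = 0.179). Of these 3 genes, HS3ST3B1 varied most between pairs.

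The largest falls were in secreted factors and in a chemokine receptor. SPOCK1, a secreted proteoglycan of the testican family, had the smallest adjusted p of all genes, 0.00105. It stood at 7.84, 7.59 and 7.22 on non-SP arrays and at 6.70, 6.35 and 5.83 on SP arrays. The fractions were fully apart and the pairs fell in parallel, by -1.14, -1.23 and -1.39. The mean difference was -1.26 ± 0.09 (limma SE, n = 3 pairs), 2.39-fold lower in SP cells, with a 95% interval of -1.46 to -1.05.

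IL11, a cytokine of the IL6 family, had 8.44, 9.05 and 8.67 on non-SP arrays against 7.73, 7.53 and 7.45 on SP arrays. The SP values lay close together while the non-SP values ranged more widely, and the groups did not overlap. The difference was -1.15 ± 0.13 (2.22-fold lower, adjusted p = 0.0241), and its other probe set gave -0.27, with a mean of both of -0.71 (adjusted p = 0.0480). The remaining 10 members of that cytokine and receptor family did not pass, with IL6 itself at 0.14 ± 0.08 and the shared receptor chain IL6ST at 0.08 ± 0.08.

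Start-site sequences of genes that moved together were read for short motifs. RefSeq promoter windows of GRCh38.p14, from 250 bases before to 50 after the start, were found for 7 of the 8 rises and 20 of the 28 falls. Matches on either strand were counted for 5 motifs: AP-1 as TGANTCA, the cAMP response element core as TGACGTC, the NR4A site core as AAGGTCA, TEAD as GGAATG and the TATA box as TATAAA. The cAMP element core was in 2 of 7 rises, CXCL2 and NR4A3, and 0 of 20 falls, against 5.24% of the 11693 windows of tested genes and 3.63% of all 27305. AP-1 was in 0 rises and 2 falls, IL11 and ARRDC4 (5.09% of tested and 7.76% of all windows). The NR4A core was in ATF3 and PDCD4-AS1 (2.74% and 3.97%), TEAD in NR4A3, INPP4B and NANOS1 (11.1% and 14%) and the TATA box in BCL2A1 and CARD8-AS1 (6.44% and 12%).

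The windows of CXCL2 (chr4:74099146-74099445, minus strand), NR4A3 (chr9:99821635-99821934, plus strand) and IL11 (chr19:55370414-55370713, minus strand) are shown because they hold the matches of the strongest early-response rise, the chemokine rise and the cytokine fall; capitals mark motif matches. In CXCL2 it is the cAMP element core at -166 to -160 from the start, in NR4A3 the cAMP element core at -83 to -77 and TEAD at -73 to -68, and in IL11 AP-1 at -96 to -90, with no overlap between motifs. A match describes these letters only.
CXCL2: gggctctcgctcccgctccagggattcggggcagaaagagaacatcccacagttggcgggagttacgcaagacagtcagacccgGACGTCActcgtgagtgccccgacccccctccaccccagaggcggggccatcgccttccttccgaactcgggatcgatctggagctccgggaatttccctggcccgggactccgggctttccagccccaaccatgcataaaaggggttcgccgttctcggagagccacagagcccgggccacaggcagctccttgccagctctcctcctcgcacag
NR4A3: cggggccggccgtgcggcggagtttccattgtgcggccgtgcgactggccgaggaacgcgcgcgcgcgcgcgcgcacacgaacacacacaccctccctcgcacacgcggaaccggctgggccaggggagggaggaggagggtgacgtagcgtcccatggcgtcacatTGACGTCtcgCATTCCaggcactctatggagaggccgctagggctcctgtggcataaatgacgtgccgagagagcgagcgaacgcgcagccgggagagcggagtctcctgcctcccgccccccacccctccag
IL11: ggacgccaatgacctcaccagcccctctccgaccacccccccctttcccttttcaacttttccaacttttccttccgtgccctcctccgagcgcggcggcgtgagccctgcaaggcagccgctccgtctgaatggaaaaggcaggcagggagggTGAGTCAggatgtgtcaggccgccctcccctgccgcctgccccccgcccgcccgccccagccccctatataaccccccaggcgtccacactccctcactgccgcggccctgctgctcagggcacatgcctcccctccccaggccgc

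ACKR3, a scavenging receptor for the chemokine CXCL12, had the largest estimate and the widest spread of the 36. It stood at 7.21, 8.51 and 7.54 on non-SP arrays and at 6.40, 7.10 and 5.54 on SP arrays, so that the pair differences were -0.81, -1.41 and -1.99. The mean was -1.40 ± 0.22 (2.65-fold lower, adjusted p = 0.0469). CXCR4, the signalling receptor for the same ligand, had -0.26 ± 0.17 (adjusted p = 0.641), and CXCL12 had 0.14 ± 0.14 (adjusted p = 0.757). Of the 6 genes measured in this axis ACKR3 was the only one to pass.

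Collagens held more passing genes than any other list. Of 13 fibrillar and basement membrane collagen chains tested, 4 fell, 0 rose and 9 were lower in SP cells in all 3 pairs, where 13.7% of all genes were. With the mean of a gene's probe sets these 4 no longer passed, with adjusted p from 0.0580 to 0.0698. Of the 4, COL5A1, COL4A1 and COL11A1 had other probe sets, which fell less than the brightest, from -0.58 to -0.41. The median over the 13 was -0.44, and the medians in pairs 1, 2 and 3 were -0.26, -0.30 and -0.74, so that pair 3 was lowest. The medians over all genes in these pairs were 0.01, 0.02 and -0.04. The basement membrane chain COL4A1 stood at 9.07, 9.24 and 8.60 on non-SP arrays and at 8.59, 8.50 and 7.86 on SP arrays. COL4A2, which assembles with it, had 10.53, 10.38 and 9.97 against 10.16, 9.62 and 9.13. In both, SP was lower within each pair, and COL4A1 separated the groups while COL4A2 did not. Their differences were -0.65 ± 0.11 each (limma SE, n = 3 pairs) with adjusted p = 0.0473 for both, against -0.54 and -0.65 in untreated cells.

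COL4A1 and COL4A2 lie head to head, and their windows share 226 of 300 bases, at chr13:110307108-110307333, with COL4A1 read from the minus and COL4A2 from the plus strand. The COL4A2 window (chr13:110307034-110307333) is shown because most of it lies in both windows, and the estimates of both genes were -0.65. None of the 5 motifs matched in it.
COL4A2: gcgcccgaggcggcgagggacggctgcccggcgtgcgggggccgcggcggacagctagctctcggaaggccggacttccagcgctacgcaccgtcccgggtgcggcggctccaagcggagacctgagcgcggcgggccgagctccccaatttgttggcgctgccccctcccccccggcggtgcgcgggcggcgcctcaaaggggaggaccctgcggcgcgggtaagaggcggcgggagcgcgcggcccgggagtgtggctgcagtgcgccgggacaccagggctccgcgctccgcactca

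The fibrillar chain COL5A1 fell by 0.81 on the log2 scale, with values of 8.24, 8.32 and 7.71 on non-SP arrays and 7.58, 7.44 and 6.81 on SP arrays that did not overlap. COL11A1, a minor fibrillar chain, had pair differences of -0.33, -0.90 and -0.93. Among those that missed the threshold, COL1A1 had -0.62 ± 0.12 (adjusted p = 0.0701), COL4A3 had -0.76 ± 0.17 (adjusted p = 0.136) and COL6A1 had -0.38 ± 0.10 (adjusted p = 0.205). COL1A2, COL5A2 and COL6A2 had estimates above 0, from 0.06 to 0.10. COL1A1 and COL1A2, which join in a common trimer, thus had estimates of opposite sign.

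Fibroblasts are a cell type rich in these collagens, and their markers were read on the same arrays. Of 10 markers on the array 6 passed the filter on dim probe sets, and LUM, PDGFRA, FAP and COL3A1 did not. The summed linear signal of the 10 ranged from 898 to 2528 on non-SP arrays and from 701 to 1747 on SP arrays. Of the 6 above the filter, COL1A1 (-0.62) and the smooth muscle actin ACTA2 (-0.35) were lower in all 3 pairs. THY1 (-0.08) and PDGFRB (-0.08) were slightly lower on average, and COL1A2 (0.06) and DCN (0.10) were slightly higher. COL1A1 is itself one of the collagens. It reached a log2 level of 10.64 on non-SP arrays, against at most 9.04 for ACTA2, so the sums depend heavily on it. In the test 0 of the markers passed. Their part in the fall of the collagens was not tested. In RNA from sorted fractions, fewer cells of a kind and less RNA per cell cannot be told apart.

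Other falls included proteins of the cell surface and matrix. SULF2, an extracellular enzyme that removes sulfate from heparan sulfate, fell by 0.62 on the log2 scale and IGFBP7, a secreted binding protein for growth factors, by 0.62 as well. The heparan sulfate enzymes thus held a rise, HS3ST3B1, and a fall, SULF2, among 10 tested, with the remaining 8 between -0.06 and 0.12. TCN1, a secreted carrier of vitamin B12, had pair differences of -0.71, -0.90 and -0.85, and SCG5, a secretory-granule chaperone, had -0.49, -0.73 and -0.58. Of 15 matrix proteoglycans and matricellular proteins, SPOCK1 alone passed. The large proteoglycan VCAN (-0.45 ± 0.11), the syndecan SDC2 (-0.37 ± 0.15) and perlecan, HSPG2 (-0.32 ± 0.09), were lower in all 3 pairs with adjusted p from 0.161 to 0.418.

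Of 15 BCL2 family genes and 9 TRAIL and TNF receptors tested, 1 fell in each list, with list medians of -0.02 for both. BCL2A1, an anti-apoptotic BCL2 protein, stood at 9.00, 8.52 and 8.22 on non-SP arrays and at 8.18, 7.58 and 7.08 on SP arrays, without overlap. The difference was -0.97 ± 0.11 (1.96-fold lower, adjusted p = 0.0241). The other 14 BCL2 family members did not pass, with the pro-apoptotic BAX at -0.30 ± 0.12 and the pro-survival MCL1 at 0.07 ± 0.08. TNFRSF10D, a decoy receptor that binds TRAIL without signalling death, had 8.49, 8.59 and 9.18 against 7.86, 7.89 and 8.17, a difference of -0.78 ± 0.09 (adjusted p = 0.0241). The signalling TRAIL receptors TNFRSF10A (0.03 ± 0.18) and TNFRSF10B (-0.0038 ± 0.075) did not pass, and the decoy TNFRSF10C had -0.06 ± 0.09.

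PMEPA1, a feedback inhibitor of TGF-beta signalling, had pair differences close together, -0.46, -0.45 and -0.47. It was the only passing gene among 15 TGF-beta targets, whose median was -0.07. TGFBI, an extracellular matrix protein, had -0.32 ± 0.08 and SKIL, a repressor of SMAD proteins, had 0.33 ± 0.08, both with adjusted p = 0.178. ARRDC4, an arrestin-like gene induced by glucose, fell by 0.59 on the log2 scale, whereas its relatives TXNIP (-0.01 ± 0.11) and ARRDC3 (0.27 ± 0.10) did not pass.

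The 28 falls held 4 genes that RefSeq does not class as protein-coding, which is 14.3% against 9.28% of all genes tested. They were the long noncoding RNAs RNF139-DT, CARD8-AS1 and PDCD4-AS1 and the pseudogene FRG1BP. RNF139-DT, transcribed away from the gene RNF139, had pair differences of -1.39, -0.86 and -0.53, with pair 1 the lowest, while CARD8-AS1, antisense to an inflammasome gene, had -0.51, -1.07 and -1.13. FRG1BP had -0.69, -1.25 and -0.65, and signal from close copies of FRG1 cannot be told apart from its own on the array. The 8 rises held 0 such genes.

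The 9 falls not yet described lay between -0.73 and -0.42. KBTBD8, a substrate adaptor of a ubiquitin ligase, fell by 0.73 on the log2 scale and DPYSL3, a regulator of the neuronal cytoskeleton, by 0.72. NANOS1, an RNA-binding repressor of germ cells, fell by 0.67 on its brightest probe set, but its other probe set gave -0.14 and the mean of both was -0.41 (adjusted p = 0.238). The ubiquitin ligase RNF182 fell by 0.66 and INPP4B, a phosphatase of the phosphoinositide pathway, by 0.60. INPP4B had further probe sets at -0.64 and -0.15, and the mean of all was -0.47 (adjusted p = 0.115). The others were LHFPL6 (-0.51, and -0.33 with its other probe set averaged in, adjusted p = 0.152), SERTAD4 (-0.48), EVA1A (-0.46) and PABPC1L (-0.42), with the smallest fall in PABPC1L.

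Of 22 immediate-early genes tested, 2 rose (NR4A3 and ATF3), 0 fell and 14 were higher in SP cells in all 3 pairs, where 11.9% of all genes were. Their median was 0.16, and it was 0.19, 0.19 and 0.17 in pairs 1, 2 and 3. EGR1 had 0.51 ± 0.09 and FOS had 0.41 ± 0.07, factors that respond to serum, with adjusted p = 0.0566 and adjusted p = 0.0584. A further EGR1 probe set pointed the other way, and the mean over its probe sets was 0.31. MYC (0.40 ± 0.09), FOSL1 (0.36 ± 0.10) and KLF2 (0.34 ± 0.09) followed, while JUN (0.04 ± 0.07) and JUNB (0.05 ± 0.08) were near 0.

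Among 19 NF-kB targets and inflammatory chemokines, CXCL2 rose and 0 fell. CXCL1 (0.39 ± 0.10), CXCL3 (0.34 ± 0.09), CXCL8 (0.31 ± 0.10) and PTGS2 (0.34 ± 0.09), the prostaglandin synthase, were higher in all 3 pairs with adjusted p from 0.197 to 0.329. The monocyte chemokine CCL2 had -0.67 ± 0.14 (adjusted p = 0.126) and was lower in all 3 pairs. The feedback inhibitors TNFAIP3 (0.02 ± 0.09) and NFKBIA (0.26 ± 0.15) did not pass. TIPARP, a target of the aryl hydrocarbon receptor, had 0.66 ± 0.14, within the range of the rises that passed. TIPARP itself did not pass (adjusted p = 0.126). Its treated pairs differed by 0.46, 0.48 and 1.04. Its untreated pairs, which enter the same estimate of spread, differed by 0.60, 0.30 and 1.02.

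**Figure D3:**
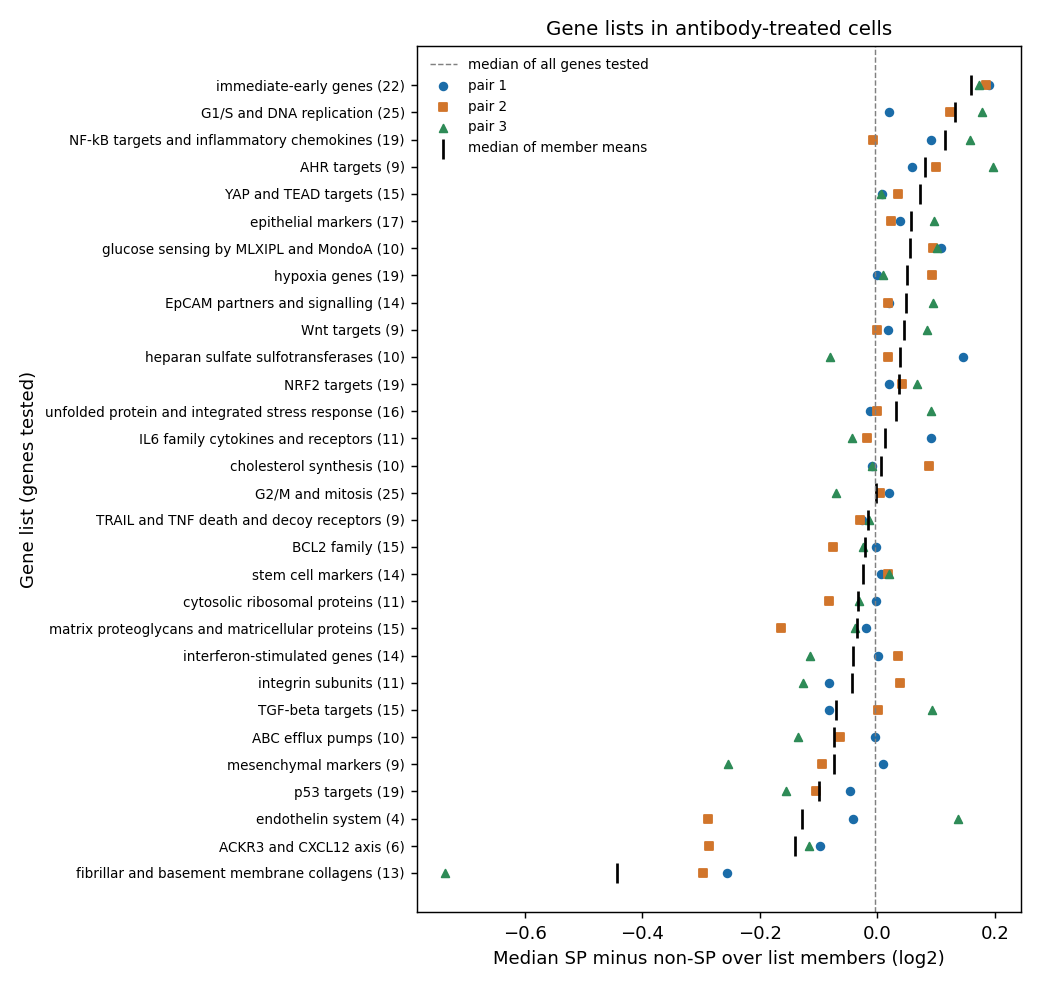
Median SP minus non-SP difference (log2) over the tested members of the gene lists reported, by treated pair (symbols) and for the member means (black tick), with the number of genes tested in brackets and the median of all genes as a dashed line. Collagens lie lowest at -0.44 and immediate-early genes highest at 0.16; the lists were chosen with earlier results known.

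Of 25 G1/S and DNA replication genes, 0 passed, 12 were higher in SP cells in all 3 pairs and 0 were lower in all 3, with medians of 0.02, 0.12 and 0.18 in pairs 1, 2 and 3. The licensing factor CDC6 had 0.37 ± 0.13 and the helicase subunit MCM5 had 0.22 ± 0.08, and neither passed. Of 25 G2/M genes 0 passed and 1 was higher and 3 lower in all pairs, with UBE2C, a ubiquitin-conjugating enzyme of mitotic exit, at -0.40 ± 0.11 and the proliferation marker MKI67 at -0.03 ± 0.07. The median over this list was -0.0017. Whether the lists differ from each other was not tested.

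EPCAM had 0.22 ± 0.08 and did not pass (adjusted p = 0.365), with levels of 9.07 to 10.34 on non-SP arrays and 9.20 to 10.62 on SP arrays. It was higher in SP cells in all 3 treated pairs. Of 17 epithelial markers 0 passed, with the tight junction protein CLDN1 at 0.19 ± 0.07 and E-cadherin, CDH1, at 0.09 ± 0.08, and 6 were higher in all 3 pairs. Of 9 mesenchymal markers 0 passed, with N-cadherin, CDH2, at -0.44 ± 0.10 (adjusted p = 0.136) and vimentin, VIM, at 0.08 ± 0.10. Of 14 genes for EpCAM partners and signalling 0 passed, with the tetraspanin TSPAN8 at -0.66 ± 0.22 (adjusted p = 0.305).

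Stem cell markers, often read in side populations, held 0 passing genes of 14. In all 3 pairs 5 of them were higher and 3 lower in SP cells, and the estimates ran from -0.27 to 0.32. SOX2 had 0.22 ± 0.10, the RNA-binding protein LIN28B had 0.32 ± 0.10 and the receptor KIT had 0.30 ± 0.10, with adjusted p from 0.288 to 0.484. The other SOX2 probe sets gave -0.04 and 0.11, and the mean of all was 0.10. The hyaluronan receptor CD44 had -0.11 ± 0.07 with 7 of its 8 other probe sets of the same sign, and ALDH1A1, an aldehyde dehydrogenase, had 0.0050 ± 0.082. PROM1 and NANOG were too dim to be tested. The list median was -0.02.

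Among 19 p53 targets 0 passed and 5 were lower in all 3 pairs. ZMAT3, an RNA-binding target of p53, had -0.70 ± 0.13 (adjusted p = 0.0584) and TP53INP1, a nuclear stress protein, had -0.41 ± 0.08 (adjusted p = 0.104), with its other probe set of opposite sign. The cell cycle inhibitor CDKN1A had -0.19 ± 0.10 and MDM2, which degrades p53, had 0.08 ± 0.07. Lists for NRF2 targets, hypoxia, Wnt targets, integrins, YAP and TEAD targets, the unfolded protein response, interferon-stimulated genes, cholesterol synthesis and ribosomal proteins also held 0 passing genes, with medians between -0.04 and 0.07. In the hypoxia list the glucose transporter SLC2A3 had 0.35 ± 0.11 (adjusted p = 0.303), and in the NRF2 list GCLC, which starts glutathione synthesis, had 0.30 ± 0.08 (adjusted p = 0.223).

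Markers of the labelled origin were checked on the treated arrays. The keratins KRT7, KRT8, KRT18 and KRT19, CDH1 and EPCAM all passed the filter on dim probe sets, and the 6 had a summed linear signal of 45743 to 61816 on non-SP and 41361 to 59833 on SP arrays. Of 8 alveolar type II markers 5 passed, among them SFTPB and the lung factor NKX2-1, while SFTPD, LAMP3 and SLC34A2 did not. Passing the filter does not by itself show expression, since both red cell markers on the array, HBB and ALAS2, passed too. On non-SP arrays NKX2-1 lay at 5.93 to 6.54 and SFTPB at 6.94 to 7.67. The haemoglobin gene HBB lay at 7.12 to 7.90 there, and the T cell gene CD3E at 6.30 to 7.30. Of 6 leukocyte markers 4 were above the filter (CD3D, CD3E, CD14 and ITGAM) and PTPRC and LYZ were below it, with a summed linear signal of 323 to 480 on non-SP and 331 to 475 on SP arrays. Of 6 endothelial markers PECAM1 and TEK were above the filter, with sums of 236 to 356 and 240 to 381.

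Across the 14649 genes tested, differences in treated pair 1 and treated pair 3 were not alike. Their Pearson correlation across genes, which are not independent replicates, was -0.13, and 41.9% of genes had the same sign in both. Pair 2 correlated with r of 0.17 with pair 1 and 0.24 with pair 3. Of 86 genes that differed by more than 0.5 on the log2 scale in both pair 1 and pair 3, 54 had opposite signs, 52 of them lower in SP cells in pair 1 and higher in pair 3. Among 74 such genes in untreated pairs 1 and 3, only 1 had opposite signs.

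Of the 5 genes with the largest spread over the treated pairs, 4 followed this pattern. The translation factor EIF5A had SP minus non-SP differences of -2.00, -1.35 and 1.71 in pairs 1, 2 and 3, the proteasome ATPase PSMC3 had -1.72, -0.42 and 1.43, and MPDU1, a gene of glycan assembly in the endoplasmic reticulum, had -1.25, -0.65 and 1.12. The cathepsin-like pseudogene CTSLP8 had -1.71, -0.56 and 1.24. In each of these the sign was opposite in pairs 1 and 3, as was that of the ACTB control. When the ACTB difference was entered as a covariate, a setting added after it was seen, the SE of PSMC3 went from 0.41 to 0.11 and that of EIF5A from 0.52 to 0.19. These genes are shown for their large spread with opposite signs in pairs 1 and 3, which is the order of the covariate, so a smaller SE follows in part from that choice. Over all genes the median SE was 0.938 times that without the covariate, and it was under 0.5 times for 76 of 14649. The other gene, the nuclear long noncoding RNA MALAT1, had -0.50, -2.25 and 0.17. None of these 5 passed the test.

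**Figure D4:**
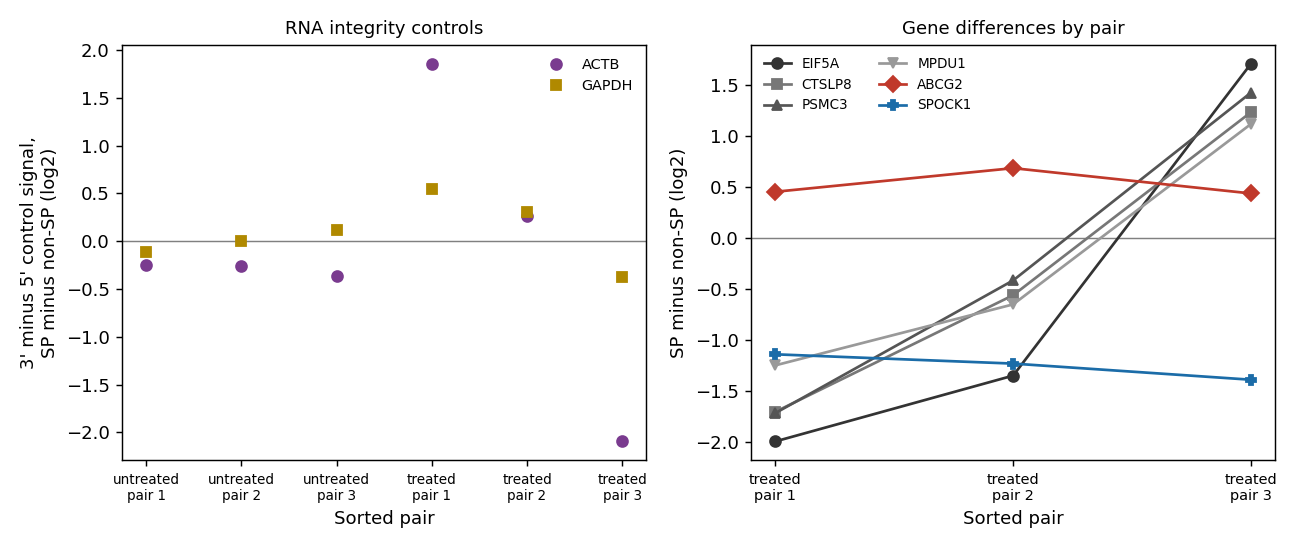
Left, SP minus non-SP difference in the 3' minus 5' signal (log2) of the ACTB and GAPDH controls in each sorted pair; treated pair 1 stands at 1.86 and treated pair 3 at -2.09 for ACTB, with the other pairs within -0.36 to 0.27. Right, SP minus non-SP difference (log2) of 6 genes in the 3 treated pairs; EIF5A, CTSLP8, PSMC3 and MPDU1 go from below 0 in pair 1 to above 0 in pair 3, while ABCG2 and SPOCK1 keep their sign.

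Whether the fraction difference itself depended on the antibody was tested as the treated minus the untreated difference. By limma, 0 genes passed (0% of those tested). Unadjusted p-values fell below 0.05 for 249 of 14649 genes, a smaller share than this threshold would give by chance. The lowest limma adjusted p was 1.00. All 36 genes that passed under the antibody had the same sign in all 3 untreated pairs, as against 28.2% of all genes whose untreated pairs all had the sign of the treated mean. The treated estimate was the larger in size for 25 of the 28 falls and 4 of the 8 rises, against 52.9% of all genes. These genes were chosen for passing in treated cells, which favours a larger value there. The median of the falls was -0.67 under the antibody and -0.62 without it, and that of the rises 0.58 and 0.61.

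Only SCG5 and SPOCK1 of the 36 had an unadjusted p under 0.05 for the difference between treatments. SCG5 stood at 6.15, 6.32 and 5.93 on treated non-SP arrays and at 5.66, 5.58 and 5.35 on treated SP arrays, while its untreated pairs differed by -0.17, -0.35 and -0.02. The difference between treatments was -0.42 ± 0.12 (unadjusted p = 0.00547). SPOCK1 had -0.33 ± 0.13 (unadjusted p = 0.0309), with untreated pairs at -0.71, -1.14 and -0.93. Both had an adjusted p = 1.00. ABCG2 had 0.07 ± 0.11 and NR4A3 had 0.03 ± 0.17.

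Outside the 36, the genes of smallest unadjusted p for a difference between treatments included a secreted protein, a histone gene and several noncoding genes. CHRDL2, a secreted BMP antagonist, had -0.29, -0.27 and -0.35 in treated pairs and 0.20, 0.23 and 0.72 in untreated pairs. The histone gene H2BC4 had 0.17, 0.24 and 0.07 in treated pairs and -0.19, -0.28 and -0.27 in untreated pairs. CHRDL2 and H2BC4 were dim, at 5.32 to 6.23 and 5.30 to 5.57 on treated non-SP arrays against a filter of 5.39. The part of background signal in their differences was not tested. HELB, a DNA helicase, had 0.34, 0.47 and 0.48 against -0.23, 0.17 and -0.03, though its other probe sets disagreed in sign. In each the adjusted p was 1.00, and they were picked out of 14649 genes for their p. The others in this set were NARS2-AS1, ZNF529-AS1 and LINC02361, noncoding genes with treated estimates of -0.26, -0.24 and -0.17, and CARTPT, FGD3 and RHAG.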

How the data were processed

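Gene expression was measured on an Affymetrix 3' array in 12 samples of A549 cells. The deposited values are on the log2 scale for each probe set, made by RMA according to the submitters' processing notes. The RMA version and the arrays processed together are not given in the sources used here. The members and gene lists were chosen with earlier results of these data known.

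Of 54613 probe sets besides controls, 41091 were annotated with a single gene symbol and 1801 with several, while 11721 were not in the annotation used here. Those with a mean over the 12 arrays above the 40th percentile (5.39) were kept, and the brightest of each gene stood for it, which left 14649 of 19777 genes. The filter used all arrays and no contrast.

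SP minus non-SP differences were taken within the 6 pairs of equal treatment and replicate number and fitted with limma 3.58.1 in R 4.3.3, with a mean for each treatment. The 3 untreated pairs add to the estimate of spread, so each SE is not that of the 3 treated pairs alone. Tests were two-sided and moderated, with Benjamini-Hochberg adjustment over all genes and a threshold of 0.05. An exact sign-flip test of 3 pairs cannot go below p = 0.25. Deviations from group means correlated with r of 0.84, 0.62 and 0.77 in treated pairs 1, 2 and 3, which was taken as pairing. Non-SP arrays of equal number also correlated across treatments, with r of 0.73 and 0.60 for numbers 1 and 3 but -0.11 for number 2. These r values alone therefore do not single out a sorted pair. The difference between treatments took no account of a shared replicate number. Sorted values within a pair differed by a mean of 0.0093 to 0.022, against at least 0.046 for other arrays, so a shared sort and shared processing cannot be told apart. The labels do not name a shared sort. Nothing but the word biological replicate says that cultures were separate, and otherwise p-values measure the spread between these samples. The number of arrays limits the precision. The fits were tested on simulated data. Promoter motifs were read as a description, and an NF-kB motif listed with them is not reported. Of the 36 passing genes, 1 rise and the gene list that holds it are not reported here.

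Named genes were those that passed with the same sign in all 3 pairs, up to 4 passing genes or else the 2 of smallest p in each list, 13 fixed genes, the 5 of smallest p of each sign in the difference between treatments and just outside the threshold, and the 5 of largest SD. Other genes in the text were named after their values were seen. Alternatives changed the pairing, the samples in the fit, the filter, the probe set of a gene, the normalization, the moderation, RNA quality covariates and the pairs included.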

Additional observations from a re-analysis of the deposited data

How the results depend on the processing

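The count of 36 genes in treated cells was 44 with the 3 treated pairs alone, 43 with the filter at the 60th percentile, 33 after quantile normalization of all arrays, 37 with arrays centred on their medians and 43 with the ACTB covariate, which was chosen after seeing the data. It was 0 with no replicate block (arrays not paired), 14 without the filter, 13 with the mean of a gene's probe sets, 90 with trended and robust moderation, 9 with the GAPDH covariate and 0 with treated pairs 1 and 3 left out together, where 2316 genes had an unadjusted p under 0.05. Leaving out 1 pair gave 0 to 32. The cause was not tested. All 36 kept their direction in every setting that measured them. This was bound to hold where only the pairs, the filter, the moderation or the block changed. The sign of each was already the same in all 3 treated pairs. The difference between treatments had a count of 0 in each setting run. Among genes that did not pass, signs reversed for ALDH1A1 after quantile normalization (-0.0034), CCND1 with the mean of probe sets (-0.0052) and treated pair 2 alone (-0.011), CARTPT (-0.12) and IFIT3 (0.079) with treated pair 2 alone, and with the GAPDH covariate for CTSLP8 (0.15), EIF5A (0.093), MPDU1 (0.14) and PSMC3 (0.27). Leaving out 1 pair, estimates ranged from -0.067 to 0.11 for ALDH1A1, -0.0076 to 0.12 for CARTPT, -0.072 to 0.13 for CCND1, -1.13 to 0.34 for CTSLP8, -1.67 to 0.18 for EIF5A, -0.95 to 0.23 for MPDU1 and -1.07 to 0.51 for PSMC3. Signal over background limits the dim genes: 5128 genes with a probe set were below the filter.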

Other observations

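Several genes just outside the threshold belong to groups that the account above does not cover. UPK1B, a uroplakin of specialised epithelia, had differences of 0.45, 0.51 and 0.46 in treated pairs 1, 2 and 3. Its mean was 0.47 ± 0.08 (limma SE, n = 3 pairs) with limma adjusted p = 0.0584. NPY2R, a neuropeptide receptor, had 0.52 ± 0.09 (adjusted p = 0.0567). TFB2M, a factor of mitochondrial transcription, had 0.41 ± 0.07 (adjusted p = 0.0584) on its brightest probe set, but its other probe sets gave -0.12 and 0.07 and the mean was 0.12 (adjusted p = 0.655). On the other side, the BMP antagonist GREM1 had -0.43 ± 0.07, the protease inhibitor PI3 had -0.51 ± 0.09, the matrix protein CCDC80 had -0.60 ± 0.10, the cyclin CCNL2 had -0.42 ± 0.07 and the probe set annotated as MIRLET7D had -0.62 ± 0.11, each with adjusted p = 0.0566. The mean over the CCNL2 probe sets was -0.27. All of these had the same sign in the 3 treated pairs.

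Leaving out treated pair 3 brought in EIF5A, ID2, CDKN2D, MRPL38, RRAS and LOC100505498, genes that did not pass with all pairs. In the remaining pairs 1 and 2 the ACTB control difference was above 0 in both. EIF5A had 1.71 in pair 3 against -2.00 and -1.35 in the others. The part of RNA integrity in these calls was not tested.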
